A study of Rattus norvegicus with 8 samples.

Results

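Glycolytic enzymes and genes of lactate handling were examined in rat epitrochlearis, a thin muscle of the forelimb made mostly of fast-twitch fibres. The genes were the glycolytic enzyme genes Pfkm, Aldoa, Gpi, Pgam2, Eno3 and Pkm, the lactate dehydrogenase subunits Ldha and Ldhb, and the lactate transporters Slc16a1 and Slc16a3. A probe set, the group of short probes that an Affymetrix array uses to read 1 transcript, counted as a member where the platform annotation gave it 1 of these symbols and no other. This gave 12 probe sets for 9 of the 10 genes, out of 31042 probe sets and 14217 genes in all. The only probe set listing Pkm also listed the pseudogene Pkm-ps20 and was left out, so Pkm has no value here. Pfkm had 3 probe sets, Slc16a1 had 2, and the other 7 genes had 1 each. Where a gene had several, the probe set of highest mean level is called its main probe set.

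The series asks whether a meal with whey protein hydrolysate (WPH), which is whey protein from milk after enzymatic cleavage, changes muscle gene expression relative to a meal with a mixture of free amino acids (AAM). Male Sprague-Dawley rats, 6 weeks old, were trained to swim for 3 days, ate only 5 g of diet the day before, and swam for 2 h. They were then gavaged with 44 kJ, about 15% of a day's energy, as carbohydrate with WPH (n = 4 rats) or carbohydrate with AAM (n = 4 rats). All 8 rats swam and ate, so the arrays hold no resting or unfed muscle, and the sources used here do not give the time between meal and sampling.

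Glycolysis splits glucose or glycogen-derived hexose phosphate into pyruvate and yields ATP without oxygen, and fast-twitch muscle leans on it during hard contraction. Several steps have isoforms that dominate in muscle, among them the phosphofructokinase encoded by Pfkm, the phosphoglycerate mutase encoded by Pgam2 and the enolase encoded by Eno3. Lactate dehydrogenase is a tetramer of A and B subunits, the A subunit prevailing in glycolytic fibres and the B subunit in heart and oxidative fibres. Lactate crosses the cell membrane through monocarboxylate transporters, of which the Slc16a3 product is typical of glycolytic fibres and exports lactate, while the Slc16a1 product has the higher affinity and is typical of oxidative fibres, which take lactate up.

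The values are the authors' deposited levels, which run from 5.28 to 14.25 on a log2-like scale with a median of 6.66 on each array. Scale and centring beyond that are unknown. Differences between arrays were far smaller than log2 differences usually are, with a median SD over the 8 arrays of 3.69e-06, so they cannot be read as fold changes. Values on single arrays are therefore given as deviations from the gene's mean over the 8 arrays, in units of its SD over the 8 arrays. Differences between the meals are given as the standardized difference, the mean of WPH minus that of AAM over the pooled within-group SD. All 11 measured fast fibre markers lay between 11.33 and 14.19, and all 9 measured slow fibre markers between 9.27 and 11.58, above the array median. Of 7 measured erythrocyte markers 3 lay above the array median, with the haemoglobin gene Hbb at 11.995.

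All 9 genes had main probe sets above the array median. Aldoa, whose product aldolase splits the doubly phosphorylated hexose, had a mean deposited level of 14.11, above 99.97% of all probe sets. Eno3 had 13.76, Ldha 12.87, Pgam2 12.38 and Pfkm 12.31, each above more than 99% of all probe sets. Gpi, which interconverts the phosphates of glucose and fructose, had 11.64 and Ldhb 11.29. The transporters had the lowest levels of the set, 9.29 for Slc16a1 (above 92.7% of probe sets) and 8.55 for Slc16a3 (above 87.2%). Probe sets differ in how strongly they bind, so these levels give no ratio of transcripts between genes. Pfkm shows this within 1 gene, since its 3 probe sets had levels of 12.31, 10.58 and 7.04. The second probe set of Slc16a1, at 6.64, lay below the array median.

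The genes differed widely in how much they varied between rats. Pgam2 had an SD over the 8 arrays of 4.37e-04 in deposited units, larger than that of 97.0% of all probe sets, and Ldhb had 2.40e-04, larger than 95.6%. Slc16a3 followed with 1.02e-04, larger than 92.4%. At the other end stood Eno3 with 1.69e-07 and Aldoa with 3.04e-08, larger than 1.18% and 0.0419% of all probe sets. Spread in these files fell with level at the top of the scale. The 28 probe sets of the highest level range, which held Aldoa and Eno3, had a median SD of 2.10e-07, and the 2273 probe sets from 9 to 11 had 2.13e-05. Among probe sets of its own level range, Eno3 exceeded 42.9% in SD and Aldoa 25%, so such small spreads were common at that level. Pgam2 exceeded 97.1% of the 175 probe sets from 12 to 13, and Ldhb 88.9% of the 316 from 11 to 12. The 8 Aldoa values spanned 1e-07, which is 10 of the smallest steps of 1e-08 in the deposited values.

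**Figure D1:**
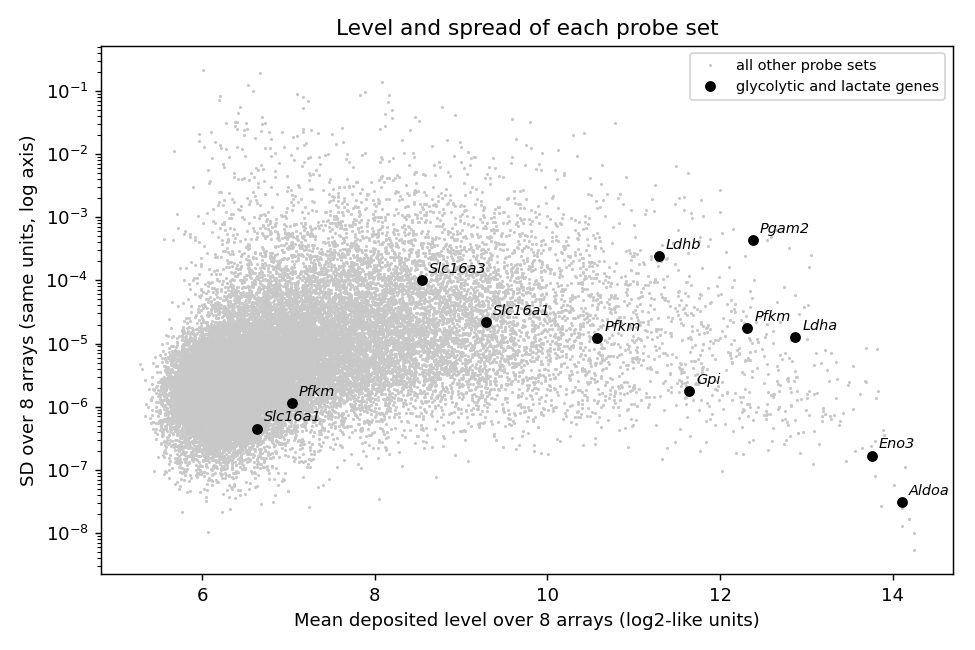
Mean deposited level over the 8 arrays (horizontal axis, log2-like units) against the SD over the 8 arrays (vertical axis, log scale, same units) for all 31042 probe sets in grey and the 12 member probe sets in black. Pgam2 and Ldhb sit high for their level, at SDs of 4.37e-04 and 2.40e-04, and Aldoa and Eno3 sit at the bottom right with 3.04e-08 and 1.69e-07.

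No gene of the set differed between WPH and AAM past the threshold. By limma, 0 of the 12 probe sets had an adjusted p below 0.05 (Benjamini-Hochberg over 31042 probe sets, of which 0% passed), and each had an adjusted p of 0.9998. At an unadjusted p below 0.05 there was 1 of 12, the main probe set of Slc16a1, against a background of 3.58% of all probe sets (1.71% higher and 1.86% lower after WPH). None of the 12 had groups that did not overlap, against a background of 2.23% (1.08% with WPH higher and 1.15% with WPH lower). Of the 9 main probe sets 4 were higher and 5 lower after WPH, and their median standardized difference was -0.01, beside -0.06 over all 14217 genes. The count and median describe the set and test nothing. The members are described below in the order of their roles.

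**Figure D2:**
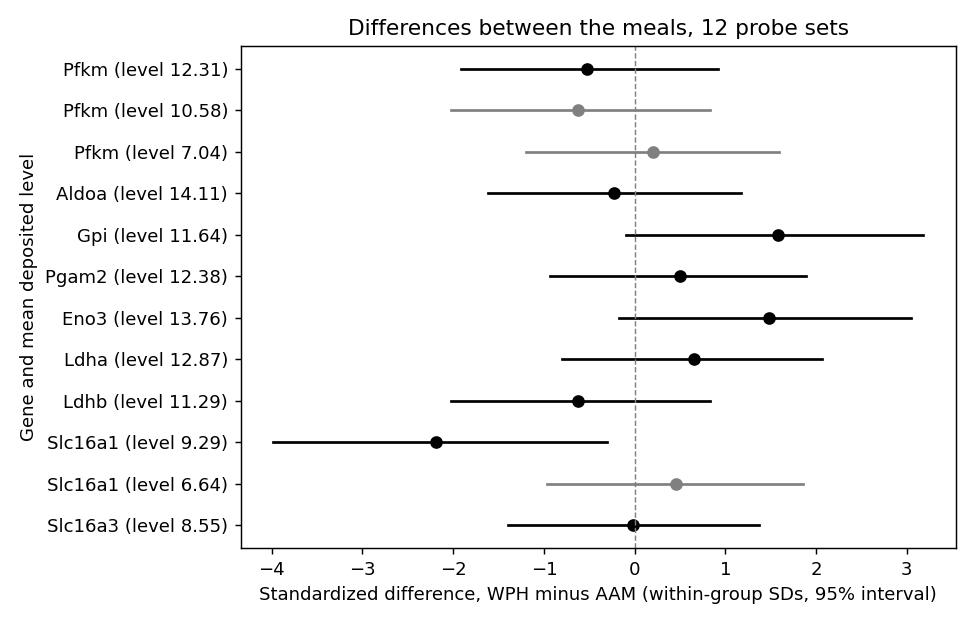
Standardized difference, WPH minus AAM, of each of the 12 probe sets (horizontal axis, units of the SD within groups) with its 95% interval from the noncentral t distribution, n = 4 rats per group; main probe sets are black and other probe sets of the same gene grey, with the mean deposited level beside the name. Only the interval of the main Slc16a1 probe set, -3.98 to -0.30, leaves out 0.

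Among the enzymes, Gpi had the largest standardized difference, 1.59 (95% interval -0.10 to 3.18, n = 4 per group). Its deviations were -0.38, 0.61, 1.14 and 1.16 SD on the 4 WPH arrays, against -0.32, 0.43, -1.09 and -1.54 SD on the 4 AAM arrays. The groups overlapped through WPH replicate 1 and AAM replicate 2, while the 2 highest arrays were WPH and the 2 lowest AAM. The exact two-sided permutation p was 0.0857, where the smallest that 35 splits of 8 arrays allow is 0.0286. The mean deposited difference was 2.26e-06 ± 1.01e-06 (SE). With each array centred on its median the standardized difference turned to -0.40.

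Eno3 had a standardized difference of 1.48 (-0.17 to 3.05). It deviated by -0.64, 0.13, 1.08 and 1.85 SD after WPH, against -0.82, -0.40, -1.05 and -0.16 SD after AAM. WPH replicates 2, 3 and 4 lay above every AAM array and WPH replicate 1 lay among them. The exact permutation p was 0.0857. The unadjusted p of limma was 0.559, since limma raises very small variances toward those of the other probe sets, and the SD of Eno3 was among the smallest on the arrays. With arrays centred on their medians the standardized difference of Eno3 turned to -0.51.

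Pgam2 had 0.50 (-0.93 to 1.89). Its arrays were at -0.56, -0.24, 0.31 and 1.52 SD after WPH, against -1.56, -0.04, 1.19 and -0.62 SD after AAM, so the groups overlapped, with the highest array from WPH and the lowest from AAM. Pfkm, which encodes the enzyme at the main control point of the pathway, had -0.52 (-1.92 to 0.91) at its main probe set, with deviations of -0.55, 1.01, 0.20 and -1.73 SD after WPH against 1.20, 0.80, -0.20 and -0.72 SD after AAM. Its other probe sets had -0.62 and 0.21, so the 3 did not share a sign. Aldoa had -0.23 (-1.61 to 1.17), and its 4 WPH arrays held both its lowest and its highest value, at -1.60 and 1.68 SD, with the AAM arrays from -0.29 to 0.70 SD between them. For Pgam2, Pfkm and Aldoa the exact permutation p was 0.486, 0.514 and 0.857.

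**Figure D3:**
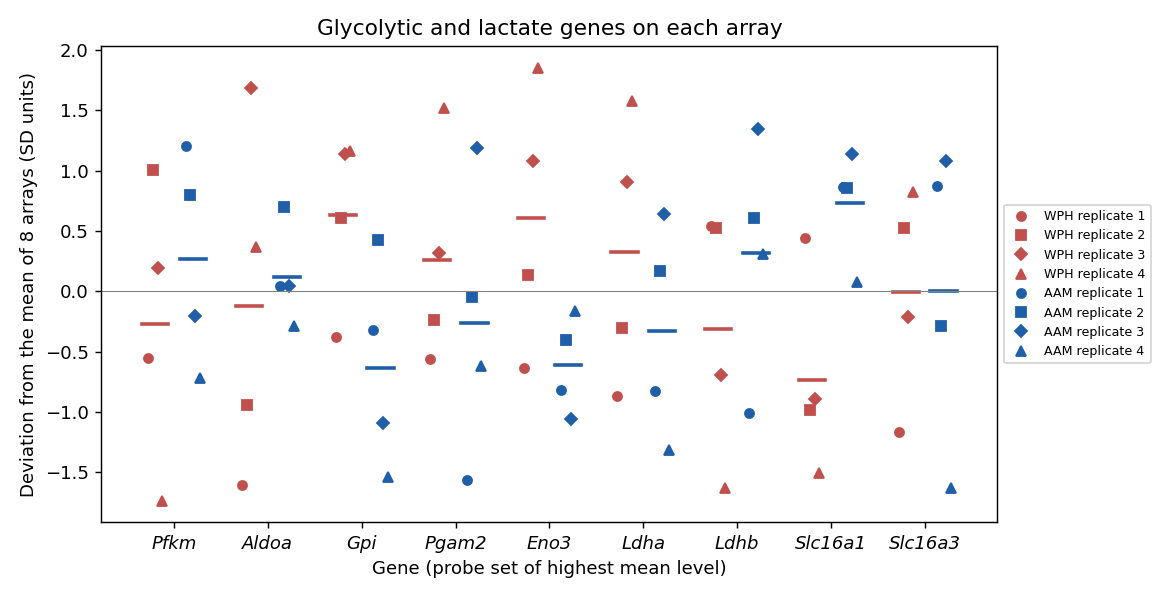
Deviation of each array from the gene's mean over the 8 arrays, in units of the SD over the 8 arrays (vertical axis), for the main probe set of each gene (horizontal axis); WPH in red to the left, AAM in blue to the right, a marker shape per replicate and a bar at each group mean. The WPH and AAM points overlap for every gene; for Slc16a1 only WPH replicate 1, at 0.44 SD, lies above the lowest AAM array.

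The lactate dehydrogenase subunits had standardized differences of opposite sign, each within the spread between rats. Ldha, the subunit typical of glycolytic fibres, had a standardized difference of 0.65 (-0.80 to 2.06). Its deviations were -0.87, -0.30, 0.91 and 1.58 SD after WPH, against -0.82, 0.17, 0.64 and -1.31 SD after AAM. Ldhb, the subunit of oxidative fibres, had -0.62 (-2.02 to 0.83), with 0.54, 0.52, -0.70 and -1.63 SD after WPH against -1.01, 0.61, 1.35 and 0.31 SD after AAM. WPH replicate 4 was the highest array for Ldha and the lowest for Ldhb. Both exact permutation p-values were 0.429, and with arrays centred on their medians Ldha turned to -0.12.

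Slc16a1, the transporter gene of oxidative fibres, had the largest standardized difference of the set, -2.19 (95% interval -3.98 to -0.30, n = 4 per group). The 4 WPH arrays deviated by 0.44, -0.98, -0.89 and -1.504 SD, against 0.87, 0.86, 1.13 and 0.08 SD on the 4 AAM arrays. WPH replicates 2, 3 and 4 lay below every AAM array, and WPH replicate 1 lay above AAM replicate 4. The unadjusted p of limma was 0.0157, the adjusted p 0.9998 and the exact permutation p 0.0571. Without WPH replicate 1, which lay among the AAM arrays, the standardized difference was -4.53, and without AAM replicate 4 it was -2.59. Leaving out any of the other 6 arrays made it smaller, from -1.97 without WPH replicate 4 to -1.90 without AAM replicate 3. The mean deposited difference was -3.18e-05 ± 1.03e-05 (SE). The second probe set of Slc16a1, below the array median in level, had a standardized difference of 0.46 (-0.97 to 1.85) and so did not share the direction of the main probe set.

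Slc16a3, the transporter gene of glycolytic fibres, had a standardized difference of -0.01 (-1.40 to 1.37) and an exact permutation p of 0.971. Its arrays were at -1.16, 0.52, -0.21 and 0.82 SD after WPH, against 0.87, -0.29, 1.08 and -1.63 SD after AAM. Both meals thus held high and low arrays, and the interval spans more than 1 SD in either direction, so a difference of that size is not excluded. The score of 10 macrophage markers, the mean of their deviations, was -0.87, -0.10, 0.42 and 0.91 on WPH replicates 1 to 4 and 0.75, -0.61, 0.48 and -0.99 on AAM replicates 1 to 4. Its lowest arrays, AAM replicate 4 and WPH replicate 1, were also the lowest for Slc16a3. Of the 10 markers 9 lay above the array median, with levels from 6.23 to 10.90, and their part in the Slc16a3 values was not tested. The score of 7 adipocyte markers was -0.57, -0.78, 0.21 and 0.68 on WPH replicates 1 to 4 and 1.15, -0.17, 0.53 and -1.06 on AAM replicates 1 to 4. Of these 7 markers 3 lay above the array median, Car3 at 13.82, Fabp4 at 11.86 and Cfd at 9.08. Adipoq, Plin1, Lep and Cidec lay below it, at 6.40, 6.09, 6.13 and 6.22. The adipocyte score too was lowest on AAM replicate 4, and its part was not tested either. The erythrocyte score was also lowest there, at -0.54. WPH replicate 1 and AAM replicate 4 were the lowest for 2 lists described below, further glycolytic enzymes (-0.34 and -0.53) and other lactate genes (-0.73 and -0.49). The part of the erythrocyte score and of these 2 lists in the Slc16a3 values was not tested.

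The promoters of the lactate genes are shown because the subunit and transporter pairs differ in the motif bound by hypoxia-inducible factors, which are known to activate Ldha and Slc16a3 when oxygen is low. Each sequence runs 5′ to 3′ on the gene's strand, from 250 bases before to 50 bases after the annotated start, and comes from RefSeq on GRCr8; all 10 genes were matched by gene ID. Capitals mark ACGTG or GCGTG, the core letters of the motif, on either strand (CACGT or CACGC where the match is on the other strand). A CACGTG counts as a match of ACGTG on each strand.
Ldha (chr1:106507842-106508141, + strand): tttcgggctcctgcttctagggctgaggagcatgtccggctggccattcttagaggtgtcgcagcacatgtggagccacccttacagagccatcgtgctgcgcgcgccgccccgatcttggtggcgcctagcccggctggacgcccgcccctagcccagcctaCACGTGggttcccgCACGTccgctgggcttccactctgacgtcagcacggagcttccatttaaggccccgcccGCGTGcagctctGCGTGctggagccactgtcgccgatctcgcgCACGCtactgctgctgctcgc
Ldhb (chr4:177177359-177177658, - strand): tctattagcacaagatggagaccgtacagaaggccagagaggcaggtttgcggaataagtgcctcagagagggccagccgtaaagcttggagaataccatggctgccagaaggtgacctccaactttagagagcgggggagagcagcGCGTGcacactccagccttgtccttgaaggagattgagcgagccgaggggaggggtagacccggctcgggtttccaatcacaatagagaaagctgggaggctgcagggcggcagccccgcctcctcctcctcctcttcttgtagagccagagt
Slc16a1 (chr2:194812410-194812709, + strand): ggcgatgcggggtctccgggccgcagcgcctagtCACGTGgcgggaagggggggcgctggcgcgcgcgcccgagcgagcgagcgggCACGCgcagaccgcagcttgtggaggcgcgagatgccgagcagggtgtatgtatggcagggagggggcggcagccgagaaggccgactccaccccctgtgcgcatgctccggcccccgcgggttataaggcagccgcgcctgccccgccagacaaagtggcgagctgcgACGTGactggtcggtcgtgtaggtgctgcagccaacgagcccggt
Slc16a3 (chr10:106712078-106712377, + strand): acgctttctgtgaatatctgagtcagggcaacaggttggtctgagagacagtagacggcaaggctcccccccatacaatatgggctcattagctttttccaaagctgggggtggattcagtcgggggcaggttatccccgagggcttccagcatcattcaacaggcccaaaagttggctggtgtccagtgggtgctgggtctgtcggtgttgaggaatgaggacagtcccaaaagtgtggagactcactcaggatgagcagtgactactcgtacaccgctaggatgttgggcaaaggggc

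The Ldha window held 3 matches of ACGTG and 3 of GCGTG, and the Slc16a1 window 3 and 1. The Ldhb window held 1 match of GCGTG, and the Slc16a3 window held neither. Over all 33469 promoter windows of the same length, 19.3% held ACGTG, 29.7% held GCGTG and 41.6% held either. Of the 12 windows of the 10 genes, 3 of which belong to Aldoa, 5 held ACGTG, 3 held GCGTG and 6 held either. A match describes letters in the window, and its absence says only that these letters are not there. Ldha and Slc16a1, which held the most matches of the lactate genes, had r = -0.46 over the 8 arrays (exact permutation p = 0.242, adjusted p = 0.582). Any part of the motif in these values was not tested.

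Correlations over the 8 rats were computed for all 36 pairs of the 9 main probe sets, with p-values adjusted over the 36. Only Eno3 and Slc16a1 passed, in opposite directions, with Pearson's r of -0.92 (exact permutation p = 5.7e-04, adjusted p = 0.0205) and Spearman's rho of -0.95 (adjusted p = 0.0411). Both ranges over the 8 arrays, 4.9e-07 for Eno3 and 5.72e-05 for Slc16a1, were below the 6.67e-05 spanned by the array medians. Correlations were not computed on values centred on the array medians. The AAM arrays and WPH replicate 1 had high Slc16a1 and low Eno3, and WPH replicates 2, 3 and 4 the reverse. Deviations from the group means still correlated at r = -0.87 (exact permutation within groups, p = 0.0174), but with an adjusted p of 0.292. Without the arrays farthest from the median of Eno3, WPH replicates 3 and 4, r was -0.89 over 6 arrays. The pair lost its adjusted p when 1 array was left out in 4 of 8 cases, with 0.05 without WPH replicate 2 and without WPH replicate 3, 0.0786 without AAM replicate 4 and 0.164 without WPH replicate 4, while r stayed between -0.98 and -0.88.

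Pgam2 and Ldha had the highest positive correlation, r = 0.87 with rho = 0.90 (exact permutation p = 0.00489 and 0.00456), but their adjusted p-values were 0.0879 and 0.0821. Within groups r was 0.86, and without AAM replicate 1 and WPH replicate 4 it was 0.83 over 6 arrays. Gpi and Eno3 had r = 0.74 (exact permutation p = 0.033, adjusted p = 0.396) and within groups r = 0.54. Eno3 and Ldhb had r = -0.71 (exact permutation p = 0.0499, adjusted p = 0.419), which was -0.02 without WPH replicates 3 and 4, the arrays farthest from the median of Eno3, and -0.97 without AAM replicate 1, so it depended on which arrays entered. The subunits Ldha and Ldhb had r = -0.35 (exact permutation p = 0.391, adjusted p = 0.582), and the transporters Slc16a1 and Slc16a3 had r = -0.07 (exact permutation p = 0.867, adjusted p = 0.941). Over the 36 pairs r had a median of 0.15, and 21 were positive.

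**Figure D4:**
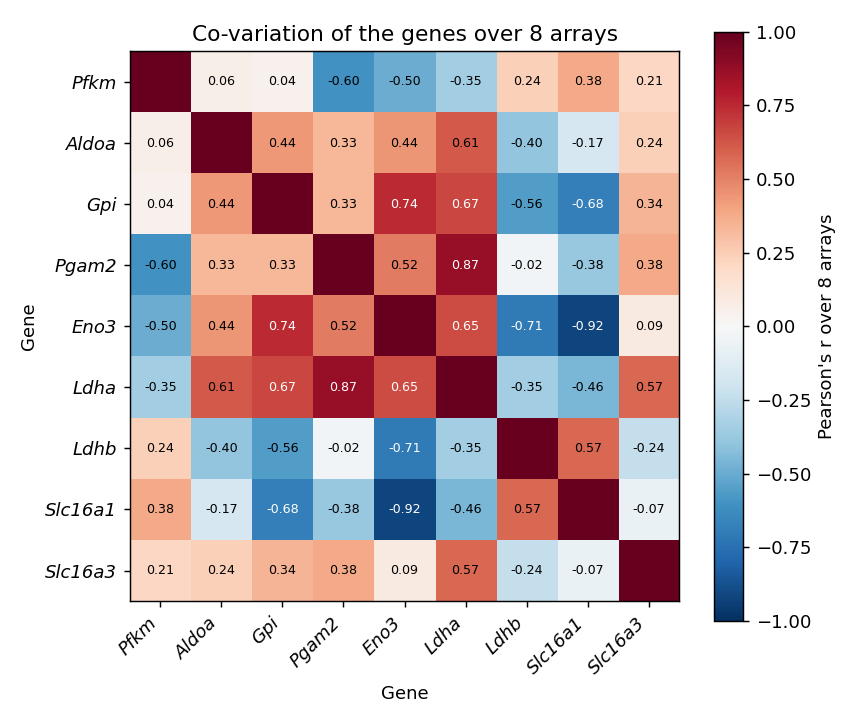
Pearson's r over the 8 arrays for each pair of the 9 main probe sets (rows and columns are genes, colour from -1 in blue to 1 in red, r printed in each cell). Eno3 with Slc16a1, at -0.92, is the only pair past the adjusted threshold, and Pgam2 with Ldha, at 0.87, is the highest.

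**Figure D5:**
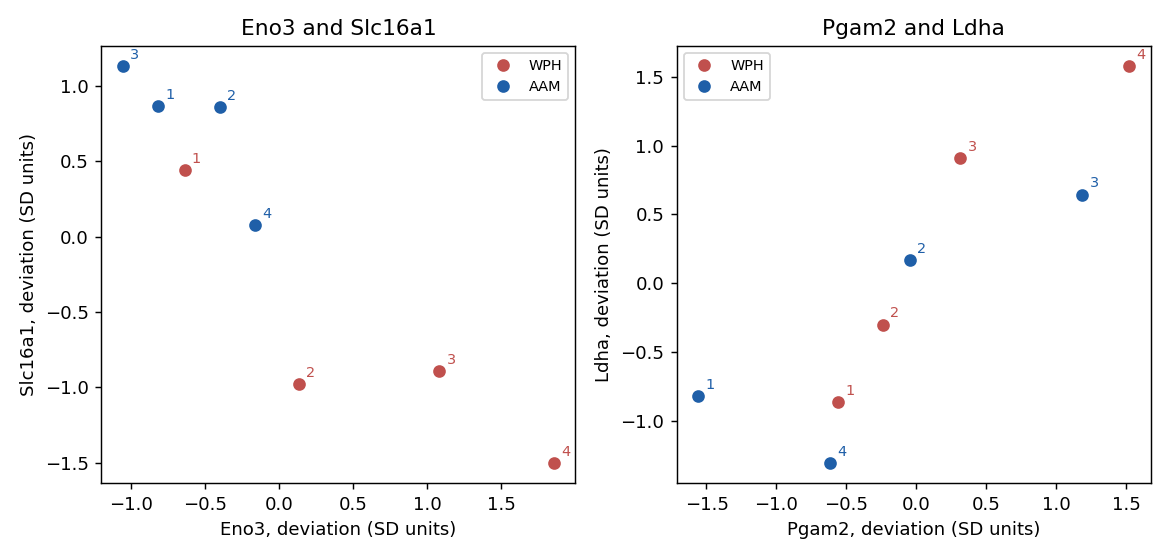
Deviation of each array from the gene's mean in SD units for Eno3 against Slc16a1 (left) and Pgam2 against Ldha (right); WPH in red, AAM in blue, replicate numbers beside the points. In the left panel WPH replicates 2, 3 and 4 sit at low Slc16a1 (-0.98, -0.89 and -1.504 SD) and every other array above 0; in the right panel arrays of both meals run from low to high in both genes.

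WPH replicate 4 was the highest array for Gpi, Pgam2, Eno3 and Ldha and the lowest for Pfkm, Ldhb and Slc16a1. The score of the 11 fast fibre markers was also highest on that array, at 1.05. It was -0.11, -0.27 and 0.26 on WPH replicates 1 to 3 and from -0.75 to -0.01 on the AAM arrays. These markers had a median level of 13.68, in the highest level range, where the median SD was 2.10e-07. Their score thus rests largely on very small deposited differences. The score of the 9 slow fibre markers was 0.86, 0.86, -1.17 and -0.99 on WPH replicates 1 to 4, against 0.01, -0.44, 0.07 and 0.81 on AAM replicates 1 to 4. The part of fibre markers in the values of the enzymes, subunits and transporters was not tested. In whole muscle, fewer fibres or cells of a type and less RNA per cell cannot be told apart.

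Other genes of the pathway were counted by lists of names, 1 main probe set per gene, and none passed the threshold. Of 15 measured further glycolytic enzymes 8 were higher and 7 lower after WPH, with a median standardized difference of 0.12. Eno2, the enolase of neurons, had -1.83 (-3.50 to -0.07) and Gapdhs, a glyceraldehyde phosphate dehydrogenase of sperm, 1.08 (-0.47 to 2.55), which were the smallest unadjusted p-values of that list, 0.0434 and 0.196 by limma. The level of Eno2 was 6.32, below the array median. The remaining steps of muscle glycolysis had 0.80 for Tpi1 (triose phosphate isomerase), 0.16 for Pgk1 (phosphoglycerate kinase) and -0.42 for Hk2 (the hexokinase of muscle). Gapdh has no value, since its only probe set also listed Gapdhl10.

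The 8 measured genes that set the level of the allosteric activator of phosphofructokinase or that form the gluconeogenic and glycerol phosphate branches were all higher after WPH, with a median of 0.50, none past the threshold or with groups that did not overlap. Gpd2, the mitochondrial glycerol phosphate dehydrogenase, had 1.12 (-0.44 to 2.60) and Fbp2, the fructose bisphosphatase of muscle, 1.03 (-0.50 to 2.49). The smallest differences were 0.05 for Pfkfb1 and 0.10 for Pfkfb4. Fbp1 and Pfkfb2 lay below the array median, at levels of 6.10 and 6.40. The 7 other lactate genes, which include further dehydrogenases and transporters and the transporter chaperones, had 3 higher and 4 lower with a median of -0.53. The testis-type dehydrogenase gene Ldhal6b, at a level of 5.87 and so below the array median, had -1.63 (-3.24 to 0.07). Emb, a transporter chaperone, had 0.70 (-0.76 to 2.12). Of 13 genes that carry pyruvate into mitochondria or control pyruvate dehydrogenase 5 were higher and 8 lower, with a median of -0.41, and Pdhx and Pdp1 had -0.98 (-2.44 to 0.54) and -0.93 (-2.38 to 0.58). Over all 14217 genes 6556 were higher and 7661 lower.

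Among the 14208 other genes, the main probe sets most like each lactate gene over the 8 arrays were named by Pearson's r, as a description. Slc16a3 was closest to Clec10a (r = 0.97), a lectin gene of macrophages and dendritic cells, and to Cd53 (0.96), a leukocyte tetraspanin gene. Ldha was closest to Plac9 (0.97) and Crip1 (0.97), Ldhb to Mrps5 (0.96), a mitochondrial ribosomal protein gene, and LOC102546740 (0.96), and Slc16a1 to Qrsl1 (0.95) and Lipt2 (0.94), genes of mitochondrial glutaminyl-tRNA and lipoate formation. Over the 8 arrays r exceeded 0.9 for 56 genes with Ldha, 21 with Ldhb, 14 with Slc16a1 and 29 with Slc16a3. No count for unrelated values was made beside these. The named genes are the highest of 14208, so their r is high by selection, and shared regulation was not tested.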

How the data were processed

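Biotin-labelled RNA made from 100 ng of total RNA was hybridised to Affymetrix 3' arrays, 1 per rat, per the labels' protocols. The values used are the authors' deposited levels on a log2-like scale. The submitters' processing notes name R 2.7.2; how background was corrected and arrays were normalized is not given in the sources used. Of 31099 probe sets, 57 controls were left out and 31042 tested. Groups came from the labels, which call the samples biological replicates; barrels and array batches are not given, so they cannot be told apart from the meals where they differ. No arrays held identical values.

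Symbols came from the platform annotation. They named 20826 tested probe sets with 1 symbol and 436 with several, and left 9780 unnamed here. The RefSeq gene table of GRCr8 held 20758 of the gene IDs and updated 0 symbols.

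WPH and AAM were compared for all probe sets in R 4.3.3 by limma 3.58.1 (lmFit, eBayes, prior df 0.549, two-sided, Benjamini-Hochberg, threshold 0.05), tested on simulated data. Intervals (95%) used the noncentral t distribution with 6 residual degrees of freedom. Permutation tests were exact and two-sided, over 35 splits for differences and 40320 orders (576 within groups) for correlations. The number of arrays limits the precision. Members and lists were chosen with earlier results of these data known. Named were every member, the 2 genes of smallest unadjusted p in each pathway list where none passed, the steps Hk2, Tpi1, Gapdh and Pgk1, and the 2 genes most like each lactate gene. Alternatives were the replicate number as a block, quantile normalization, centring on array medians, leaving out dim probe sets or single arrays, array weights, a trended robust prior, unit SD per probe set, 1 probe set per gene and a threshold of 0.1.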

Additional observations from a re-analysis of the deposited data

How the results depend on the processing

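The count of member probe sets past the threshold was 0 under every alternative run, and so was the count over all probe sets, the smallest adjusted p of any probe set being 0.275 (replicate block). The largest difference, that of Slc16a1, kept its sign in all alternatives that gave it a value, from -4.53 without WPH replicate 1 to -1.63 with median centring. Some of these could not move it. A trended robust prior, unit SD, 1 probe set per gene and leaving out dim probe sets return -2.19 by construction. With median centring 3 genes turned, Gpi to -0.40, Eno3 to -0.51 and Ldha to -0.12. The array medians spanned 6.67e-05, more than the whole range of 9 of the 12 member probe sets, so centring by construction replaces their small differences by those of the medians. The main probe set of Slc16a1, with a range of 5.72e-05, was 1 of these 9, so its centred value also reflects the medians. The standardized difference of Slc16a3 was 0.0235 with array weights. Leaving out 1 array at a time moved Aldoa between -1.19 and 0.28, Slc16a3 between -0.68 and 0.36, Pgam2 between 0.09 and 1.17, Pfkm between -1.05 and -0.06, Ldha between 0.27 and 1.15, Ldhb between -1.22 and -0.22, Gpi between 1.30 and 2.38 and Eno3 between 1.22 and 2.60. Quantile normalization left 8 of the 12 member probe sets with the same value on all arrays, since they held the same rank on each, so it gave no value for them and none for the correlations.

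The count of correlated pairs, 1 of 36, was 0 on deviations from the group means. It ranged from 0 to 2 when 1 array was left out, an alternative chosen after seeing the data. Eno3 with Ldhb became the second pair without AAM replicate 1 (r = -0.97, adjusted p of the exact permutation test 0.0357). Pgam2 with Eno3 did so without AAM replicate 3 (r = 0.91, adjusted p of the exact permutation test 0.0464).

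Same-numbered WPH and AAM arrays deviated together with correlations of 0.16, 0.13, 0.06 and -0.07. Differently numbered arrays ranged from -0.25 to 0.28. These correlations cannot decide whether same-numbered arrays share a batch or barrel, which the labels do not give. The main comparison did not pair them. WPH replicate 4 correlated best with AAM replicate 3 (0.28). With the replicate block the count of called probe sets was 0 and Slc16a1 had -2.88.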
